A study of Homo sapiens with 8 samples.

Results

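The proteasome subunit genes are read here across 4 human embryonic stem cell lines. They were taken as every gene whose symbol in the array annotation begins with PSMA, PSMB, PSMC, PSMD, PSME, PSMF or PSMG and a digit, leaving out PSMB8 and PSMB9. Of the 44 matching genes, 41 had a probe detected above background (detection p under 0.05) on at least 2 arrays, out of 12590 named genes and 19124 genes and unnamed probes tested in all. PSMA8, PSMB11 and PSMF1 were detected on 0 arrays. Of the 41, 38 encode subunits, activators or assembly factors, and 3 match by symbol only: PSMC3IP, a meiotic recombination factor, PSME3IP1, a binding partner of PSME3, and the antisense gene PSMD6-AS2. PSMA7, PSMC5, PSMD7, PSMD13 and PSMG4 were not analysed here.

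The study asked what extra ZFX, a zinc finger transcription factor, does in human embryonic stem cells. All 4 lines stem from H9 (WA-09), an established embryonic stem cell line, and were grown under the same standard conditions, with 2 Illumina bead arrays per line. The control lines were parental H9, from which the other lines were derived, and clone 3, a wild-type line grown from 1 clone. The ZFX lines were clones 2 and 5, drug-selected after receiving a bacterial artificial chromosome with the ZFX locus. Each ZFX line is 1 clone, and the labels do not say whether clone 3 was drug-selected, so drug selection and ZFX cannot be told apart. The labels name no separate cultures behind the 2 arrays of each line, so p-values of line pairs measure only the spread between arrays, which may be technical. In bulk RNA, fewer cells of a type and less RNA per cell cannot be told apart.

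The 26S proteasome degrades proteins that carry ubiquitin chains. Its 20S core is a barrel of alpha and beta subunit rings with the proteolytic sites on PSMB5, PSMB6 and PSMB7, and its 19S cap has a base of ATPases, which unfold the substrate, and a lid, which takes off ubiquitin. Dedicated chaperones build both particles, and PSME proteins can cap the core in place of the 19S particle. Proteasome genes tend to be transcribed together, in part through the factor NFE2L1, and human embryonic stem cells are known for high proteasome activity.

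Array values are log2 intensities after background correction and quantile normalization, and a gene's values are compared only with its own on other arrays. ZFX itself was at 6.06 and 5.99 in H9, 6.26 and 6.12 in clone 3, 7.55 and 7.64 in clone 2 and 7.07 and 7.52 in clone 5, so both arrays of each ZFX line lay above all control arrays. Between 19177 and 20588 probes were detected per array. Of 10 pluripotency markers, 10 were detected in every line. Clone 3 stood apart: its arrays correlated at 0.981 to 0.985 with those of other lines, against 0.994 between arrays of 1 line. The summed linear intensity of 4 primitive streak markers was 1786 to 1908 in clone 3 (4 of 4 detected), 131 to 148 in H9 (2 of 4 detected), and 81.0 to 85.5 in the ZFX clones (0 of 4 detected). The summed intensity of the pluripotency markers was 25750 to 27060 in clone 3 and 29580 to 30820 in the other lines. Members of that list went both ways between clone 3 and H9, with 1 of 10 higher, NANOG by 0.47 (adjusted p = 0.000356, limma), and 4 lower, POU5F1, DNMT3B, PODXL and L1TD1. Of all genes and probes tested, 19.8% were called between these lines. Fibroblast markers summed to 1816 to 1842 in clone 3 and 2600 to 2837 in the other lines. THY1 had the highest level of the 4 tested, with a mean of 10.99 in H9, and so weighs most in this sum. Between clone 3 and H9, COL1A1, at -1.41, COL1A2, at -0.44, and THY1, at -0.52, were called lower (limma). DCN, at -0.16, was not called. Whether the sum follows fibroblast content was not tested. Endoderm markers summed to 526 to 531 in clone 3 and 112 to 143 in the others. Of 3 endoderm markers tested, only FOXA2 was called between clone 3 and H9, higher in clone 3 by 3.76 (limma). GATA4, at 0.25, and AFP, at -0.03, were not called. Neuroectoderm markers summed to 3460 to 3808 in the ZFX clones and 2367 to 2612 in the control lines. TUBB3 was higher in ZFX lines by 0.61 (adjusted p = 0.000898, limma), and NES, at 0.10, and PAX6, at -0.07, were not called. The trophoblast markers summed to 72.5 to 83.3 on all arrays. EOMES and MIXL1, of the primitive streak list, were lower in clones 2 and 5 than in H9. Comparisons with and without clone 3 thus move with such markers, and their part in the results below was not tested.

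No proteasome gene passed the test between the ZFX lines and the control lines. Of the 41 genes, 0 were called (0 higher and 0 lower at an adjusted p of 0.05, limma, the line being a random block), where 1.68% of all genes and probes tested were called. At an unadjusted p under 0.05 there were 2 genes, against 10.3% of everything tested. The smallest adjusted p was 0.438. The median log2 fold of ZFX over control lines was -0.01 over the 41 genes and 0.00 over all tested, with 19 proteasome genes above 0 and 22 below. With median scaling of the arrays in place of quantile normalization, both medians were lower, at -0.11 and -0.04. Then 0 genes were called, where 2.49% of all tested were. The 95% interval of the log2 fold lay within 0.5 of 0 for 36 genes. The other 5 were PSMC3IP, PSMD11, PSMD6-AS2, PSMD9 and PSMG3, with the lowest bound at -0.70 for PSMD9 and the highest at 0.83 for PSMG3. These intervals and those below rest on 1 correlation of arrays within a line, 0.353, taken for all genes. With 2 lines per group they may be too narrow for genes whose lines differ more, so larger folds are not excluded. Against H9 alone 2 genes passed, PSME3 lower and PSME4 higher, where 6.19% of all tested did. Against clone 3 alone 4 passed, PSMA2, PSMC3, PSMD1 and PSMG3, where 14.2% did. With the lines as fixed terms, so that p measures only the spread within lines, 4 passed (PSMC3IP, PSME3, PSME4 and PSMG3), where 15% did. With line means averaged first, so that p measures the spread between lines, 0 passed, where 0.0627% did.

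The 3 catalytic subunits are among the genes that did not pass. PSMB5, which carries the chymotrypsin-like site, was at 11.03 and 11.15 in H9, 10.88 and 10.91 in clone 3, 10.89 and 11.14 in clone 2 and at a mean of 11.01 (SD 0.01, n = 2) in clone 5. Its log2 fold of ZFX over control lines was 0.02 (95% interval -0.19 to 0.23, adjusted p = 0.987, limma). The groups overlapped, as they did for PSMB7, the trypsin-like subunit, at 11.49 and 11.63 in H9, 11.59 and 11.51 in clone 3, 11.41 and 11.62 in clone 2 and 11.42 and 11.48 in clone 5 (log2 fold -0.07, 95% interval -0.26 to 0.13, adjusted p = 0.945, limma). PSMB6, the caspase-like subunit, was at 12.19 and 12.26 in H9, 12.61 and 12.50 in clone 3, 12.60 and 12.55 in clone 2 and 12.38 and 12.16 in clone 5. Its values fell into a lower pair, H9 and clone 5, and a higher pair, clones 2 and 3, so that the fold between ZFX and control lines was 0.03 (95% interval -0.22 to 0.28, adjusted p = 0.984, limma). With median scaling the folds of PSMB5 and PSMB6 changed sign, to -0.08 and -0.06. PSMB10, the inducible counterpart of PSMB7, was at 10.13 to 10.34 on all 8 arrays.

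**Figure D1:**
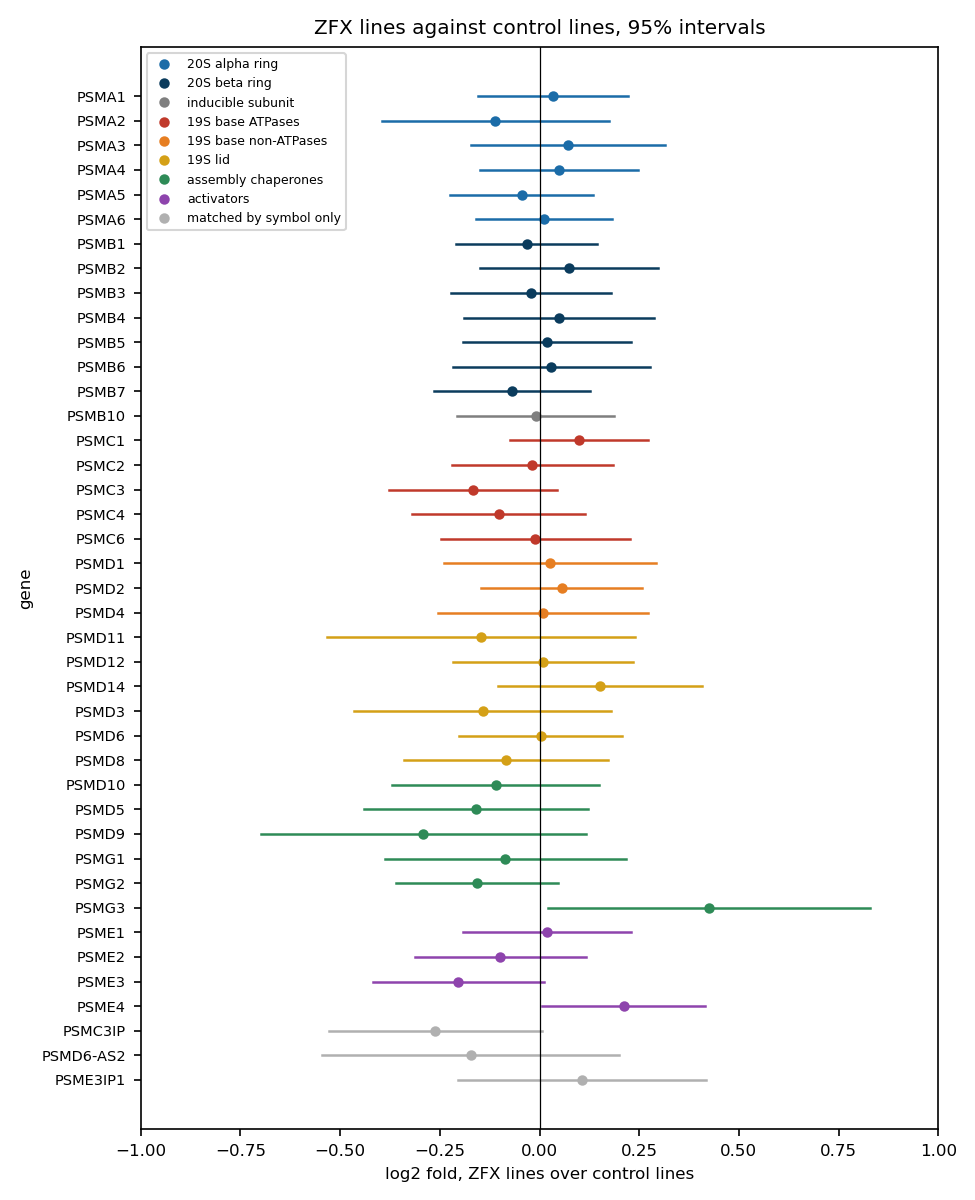
Fold of ZFX over control lines on the log2 scale (x axis) for each of the 41 genes (y axis), with points for the limma estimate, lines for its 95% interval and colours for roles. The points lie between -0.29 and 0.43, and 0 genes passed the adjusted threshold.

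Role by role, the medians of this fold were 0.02 over 6 alpha ring genes, 0.02 over 7 beta ring genes, -0.02 over 5 base ATPases, 0.03 over 3 base non-ATPases, -0.04 over 6 lid genes, -0.13 over 6 assembly chaperones and -0.04 over 4 activators. The chaperones held both extremes, PSMD9 at -0.29 (SE 0.19, adjusted p = 0.737, limma) and PSMG3 at 0.43 (SE 0.19, adjusted p = 0.438, limma). Among activators, PSME4, which encodes PA200, a nuclear cap of the core, was at 0.21 (adjusted p = 0.455) and PSME3, which encodes the nuclear cap PA28gamma, at -0.20 (adjusted p = 0.528, both limma). Neither passed.

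On single arrays, 3 of 41 genes had all 4 ZFX arrays on one side of all 4 control arrays, where 9.95% of all tested did. PSMC1, a base ATPase, lay above: its 4 control arrays were at 11.65 to 11.68 and its ZFX arrays at 11.69 to 11.84. A second PSMC1 probe had means of 11.56 in H9, 11.66 in clone 3, 11.71 in clone 2 and 11.63 in clone 5. By that probe clone 5 lay below clone 3. PSMD5, a chaperone of base assembly, lay below, at 6.63 to 6.75 in control lines and 6.48 to 6.62 in ZFX lines. PSMC3IP lay below too, at 7.39 to 7.60 against 7.10 to 7.33. The adjusted p-values in limma were 0.835 for PSMC1, 0.845 for PSMD5 and 0.501 for PSMC3IP. A second PSMC3IP probe had means of 6.09 in H9, 6.61 in clone 3, 5.77 in clone 2 and 5.93 in clone 5. By that probe the fold of clone 3 over H9 was 0.52 (adjusted p = 0.0259, limma). Those of clones 2 and 5 over clone 3 were -0.83 and -0.68 (adjusted p = 0.000534 and 0.00427, limma).

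The spread between lines was small. The highest minus the lowest line mean had a median of 0.25 log2 units over the 41 genes and 0.32 over all tested. It exceeded 0.5 for 2 genes (4.88%), PSMG3 and PSMD6-AS2, against 20.3% of all tested. The antisense gene was detected on both arrays of clone 3, 1 of clone 2 and 0 of H9 and clone 5, so no fold against the latter lines is given. The median SD within a line was 0.09 over the proteasome genes and 0.13 over all tested, with a median level of 10.04 log2 units over the proteasome genes and 5.91 over all tested, whose part in these spreads was not tested. PSMA6, of the alpha ring, had the narrowest spread, with line means between 11.55 and 11.61.

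**Figure D2:**
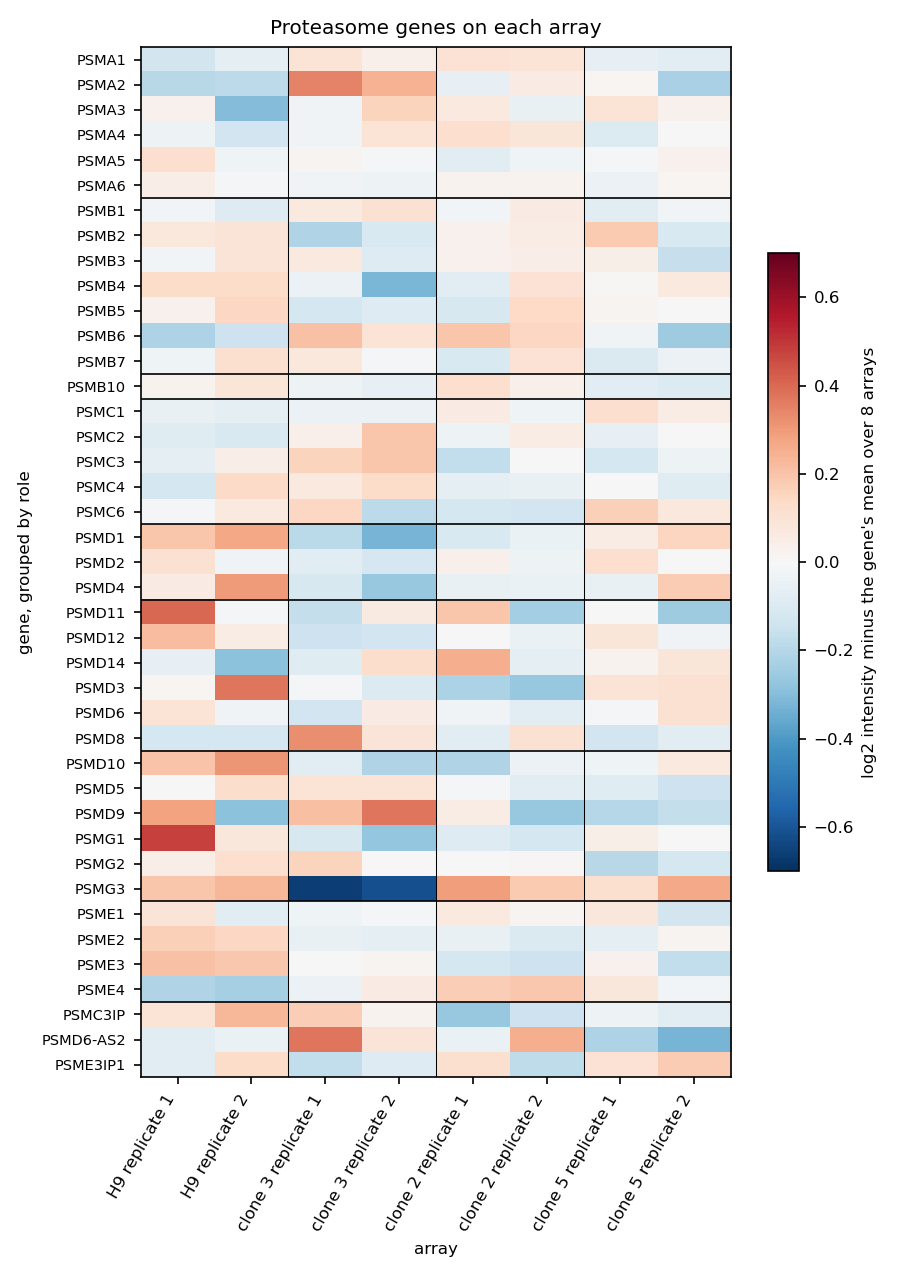
Log2 intensity of each of the 41 genes (rows, grouped by role) on each of the 8 arrays (columns) minus that gene's mean over all arrays, from blue (lower) to red (higher). The darkest cells are PSMG3 on both clone 3 arrays, at 6.38 and 6.42 against 7.15 to 7.33 on the other 6.

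The clearest difference was in 1 assembly chaperone. PSMG3, which helps to form the alpha ring, was at 7.23 and 7.27 in H9, 7.33 and 7.22 in clone 2, 7.15 and 7.30 in clone 5, and 6.38 and 6.42 in clone 3. The clone 3 arrays lay below the other 6, which overlapped among themselves. PSMG3 was lower in clone 3 than in H9 by 0.85 on the log2 scale, or 1.80-fold (SE 0.12, adjusted p = 3.82e-06, limma). Clone 2 was higher than clone 3 by 0.87 (adjusted p = 1.96e-06) and clone 5 by 0.83 (adjusted p = 4.81e-06, both limma). These comparisons share the clone 3 arrays. In the authors' processed values the fold of clone 3 over H9 was -0.45, nearer to 0 by over 1.5 times but still called. With clone 3 as the only control line, PSMG3 was higher in ZFX lines by 0.85, and with H9 as the only control line its fold was 0.00. The gene has 1 probe on the array. Of the 10 tested genes nearest to it on chromosome 7, 5 on each side, 0 were lower in clone 3 than in H9 and 1 was higher, INTS1 by 0.76 (adjusted p = 1.99e-06, limma). INTS1 encodes a subunit of the Integrator complex.

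Between the 2 control lines, 11 of 41 genes were called, 4 higher and 7 lower in clone 3 than in H9, where 19.8% of all tested were called. By role these were 1 of 6 alpha ring genes, 2 of 7 beta ring genes, 0 of 5 base ATPases, 2 of 3 base non-ATPases, 2 of 6 lid genes, 3 of 6 chaperones and 1 of 4 activators. Higher in clone 3 were PSMA2, PSMB6, PSMD8 and PSME4, and lower were PSMB4, PSMD1, PSMD4, PSMD10, PSMD12, PSMG1 and PSMG3. All 11 belong to the 38 proteasome genes. With median scaling only PSMG3 passed (0 higher, 1 lower), where 6.32% of all tested did, and without an intensity trend in the variance 3 did (PSMA2, PSMD1 and PSMG3), where 12% did. No fold of the 11 changed sign under either. Without clone 3 replicate 2 there were 6 called genes, 3 of them higher, where 12.9% of all tested were called. Without H9 replicate 2 there were 7, where 12.8% were. PSMA2, PSMD1 and PSMG3 were called whichever array was left out.

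PSMA2, an alpha ring subunit, was at 8.88 and 8.89 in H9, 9.42 and 9.32 in clone 3, 9.02 and 9.13 in clone 2 and 9.09 and 8.85 in clone 5. Both clone 3 arrays lay above the rest. The log2 fold of clone 3 over H9 was 0.49 (SE 0.09, adjusted p = 0.00026, limma). PSMD1, the large scaffold subunit of the base, ran the other way, at 10.94 and 11.02 in H9, 10.56 and 10.42 in clone 3, 10.64 and 10.70 in clone 2 and 10.80 and 10.90 in clone 5. The lines did not overlap for PSMD1, with H9 highest and clone 3 lowest. The log2 fold of clone 3 over H9 was -0.50 (SE 0.08, adjusted p = 3.97e-05, limma). PSMG1, which pairs with PSMG2 to seed the alpha ring, was at 9.99 and 9.59 in H9, 9.40 and 9.24 in clone 3, 9.42 and 9.39 in clone 2 and 9.55 and 9.51 in clone 5. H9 lay above all clones, and its own arrays differed more than those of any other line (fold of clone 3 over H9 -0.47, SE 0.10, adjusted p = 0.000952, limma). A second PSMG1 probe gave -0.15 (adjusted p = 0.363) and did not pass.

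PSMD8, a lid subunit, was at 9.18 and 9.18 in H9, 9.63 and 9.39 in clone 3, 9.23 and 9.41 in clone 2 and 9.17 and 9.23 in clone 5. Clone 3 overlapped with clone 2 and lay above H9 by 0.33 (SE 0.09, adjusted p = 0.0108, limma). PSMB6 also was higher in clone 3 than in H9, by 0.33 (SE 0.08, adjusted p = 0.00554, limma). The remaining folds of clone 3 over H9 were 0.23 for PSME4, -0.31 for PSMB4, a core subunit without a proteolytic site, -0.27 for PSMD12, of the lid, -0.36 for PSMD4, a ubiquitin receptor, and -0.39 for PSMD10, a base chaperone also called gankyrin. A second PSMD4 probe gave -0.21 (adjusted p = 0.097). PSMD10 has 2 further probes, and they disagreed, at -0.50 (adjusted p = 0.000682) and 0.12 (adjusted p = 0.657). Leaving out 1 array ended the call and moved the fold by over 1.5 times for 4 genes: PSMB4 was at -0.17 without clone 3 replicate 2, PSMD8 at 0.21 without clone 3 replicate 1, PSMG1 at -0.27 without H9 replicate 1 and PSMD4 at -0.24 without H9 replicate 2. Over all pairs of lines, 8 of the 41 genes had both clone 3 arrays above or below the other 6, namely PSMA2, PSMB1 and PSMC3 above and PSMD1, PSMD2, PSMD4, PSMD12 and PSMG3 below, where 24.7% of all tested did.

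**Figure D3:**
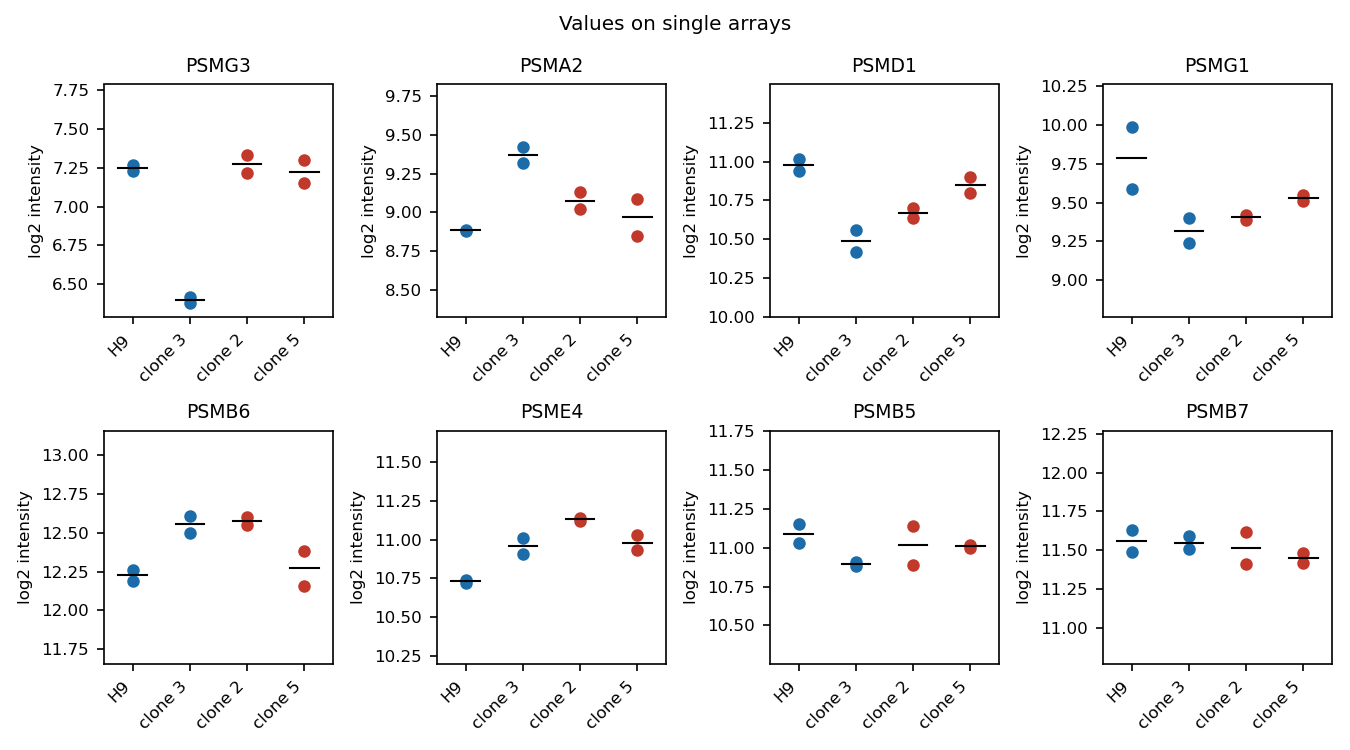
Log2 intensity on single arrays (y axis, spanning 1.5 log2 units in every panel) by line (x axis) for 8 genes, with blue points for control lines, red points for ZFX lines and bars for line means. PSMG3 is low in clone 3 alone, PSMA2 is highest and PSMD1 lowest in clone 3, PSMG1 is highest and PSME4 lowest in H9, PSMB6 is higher in clones 2 and 3, and the lines overlap for PSMB7.

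Clone 2 differed from H9 in 8 of 41 genes, 2 higher and 6 lower, where 15.2% of all tested were called. PSME4 was at 10.74 and 10.72 in H9, 10.91 and 11.01 in clone 3, 11.12 and 11.14 in clone 2 and 11.03 and 10.93 in clone 5. H9 lay below every clone, and clone 2 was higher than H9 by 0.40 (SE 0.08, adjusted p = 0.000618, limma). PSMB6 was higher in clone 2 by 0.35 (SE 0.08, adjusted p = 0.0047, limma). PSMD3, a lid subunit, was at 7.19 and 7.55 in H9, 7.16 and 7.08 in clone 3, 6.95 and 6.91 in clone 2 and 7.27 and 7.28 in clone 5. Clone 2 was the lowest line, 0.44 below H9 (SE 0.12, adjusted p = 0.0134, limma), whose own arrays were wide apart. PSMG1 was lower by 0.38 (SE 0.10, adjusted p = 0.00819, limma), and its second probe gave -0.11 (adjusted p = 0.578).

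PSMD10 was at 9.96 and 10.07 in H9, 9.69 and 9.55 in clone 3, 9.55 and 9.72 in clone 2 and 9.73 and 9.83 in clone 5, so H9 lay above all the clones. Its fold of clone 2 over H9 was -0.38 (SE 0.09, adjusted p = 0.00292, limma), and its further probes gave -0.43 (adjusted p = 0.00404) and -0.04 (adjusted p = 0.907). The other 3 lower genes were PSMD1 at -0.31, PSME3 at -0.33 and PSMC3IP at -0.37. Second probes gave -0.07 for PSME3 (adjusted p = 0.671) and -0.31 for PSMC3IP (adjusted p = 0.237, both limma). With median scaling 0 genes passed, with all 8 folds still of the same sign, and 2.92% of all tested did. Without an intensity trend 1 did, PSME4, where 7.5% of all tested did. Leaving out 1 array gave 3 to 10 called genes, and PSME4 was called each time. There were 3 without clone 2 replicate 1 and 5 without H9 replicate 2, where 8.95% and 9.15% of all tested were called. The fold of PSMG1 was -0.18 without H9 replicate 1 and -0.58 without H9 replicate 2, and that of PSMD3 was -0.26 without H9 replicate 2. With the median scaling, the median fold over the 41 genes was -0.16 and that over all tested -0.07, against -0.05 and -0.01 with quantile normalization.

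Clone 5 differed from H9 in 0 of 41 genes, where 5.54% of all tested were called. At an unadjusted p under 0.05 there were 9 of 41, against 17.7% of everything tested. The nearest to the threshold were PSME4 at 0.25 (SE 0.08, adjusted p = 0.0566, limma) and PSME3 at -0.27 (SE 0.09, adjusted p = 0.0662, limma). These are the activators with the largest folds of clone 2 over H9, and both comparisons share the H9 arrays. Leaving out 1 array gave 0 or 1 called gene: PSME3 without clone 5 replicate 1, PSMA3 without H9 replicate 1 and PSMG1 without H9 replicate 2. In these fits 3.22%, 4.86% and 3.23% of all tested were called.

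Against clone 3, clone 2 differed in 3 of 41 genes, where 16.2% of all tested were called, and clone 5 in 6 of 41, where 17.1% were called. PSMG3 was higher in both ZFX clones, as given above. PSMA2 was lower in clone 2 by 0.30 (SE 0.09, adjusted p = 0.0226, limma) and in clone 5 by 0.41 (SE 0.09, adjusted p = 0.00193, limma). PSMC3, a base ATPase, was at 9.91 and 10.02 in H9, 10.13 and 10.17 in clone 3, 9.80 and 9.97 in clone 2 and 9.85 and 9.94 in clone 5. Its clone 3 arrays lay above the other 6, which overlapped. PSMC3 was lower in clone 2 by 0.26 (SE 0.08, adjusted p = 0.0298, limma) and in clone 5 by 0.26 (SE 0.08, adjusted p = 0.0334, limma). Clone 5 also had higher PSMD1, by 0.37 (adjusted p = 0.00148), and lower PSMB6 and PSMD8, at -0.29 (adjusted p = 0.0163) and -0.31 (adjusted p = 0.0194, all limma). With median scaling, PSMG3 was the 1 gene called in each comparison, where 6.89% and 6.72% of all tested were called. With the mean of each gene's probes, 9 genes were called in clone 5 against clone 3, where 15.9% of all tested were. Second probes of PSME3, at -0.31 (adjusted p = 0.0108), and PSMD4, at 0.28 (adjusted p = 0.0215, both limma), passed there. The tested probes of these genes did not. In clone 5 over clone 3, PSMB6 was at -0.18 without clone 5 replicate 2 and PSMD8 at -0.19 without clone 3 replicate 1, both no longer called. Clone 2 against clone 3 kept PSMG3 alone without clone 2 replicate 1 or clone 3 replicate 2. In these fits 11.7% and 10.5% of all tested were called.

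Between the ZFX clones, 1 of 41 genes was called, where 3.27% of all tested were. PSMB6 was lower in clone 5 than in clone 2 by 0.31 (SE 0.08, adjusted p = 0.0393, limma), with both clone 5 arrays, at 12.38 and 12.16, below both clone 2 arrays, at 12.60 and 12.55. The call was lost with median scaling, with no filter on dim probes, with the mean of each gene's probes and without an intensity trend (adjusted p = 0.293 for the last), and when clone 2 replicate 1, clone 2 replicate 2 or clone 5 replicate 2 was left out. The fold stayed below 0 in each of these, at -0.20 without clone 5 replicate 2. PSMB6 has 1 kept probe.

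**Figure D4:**
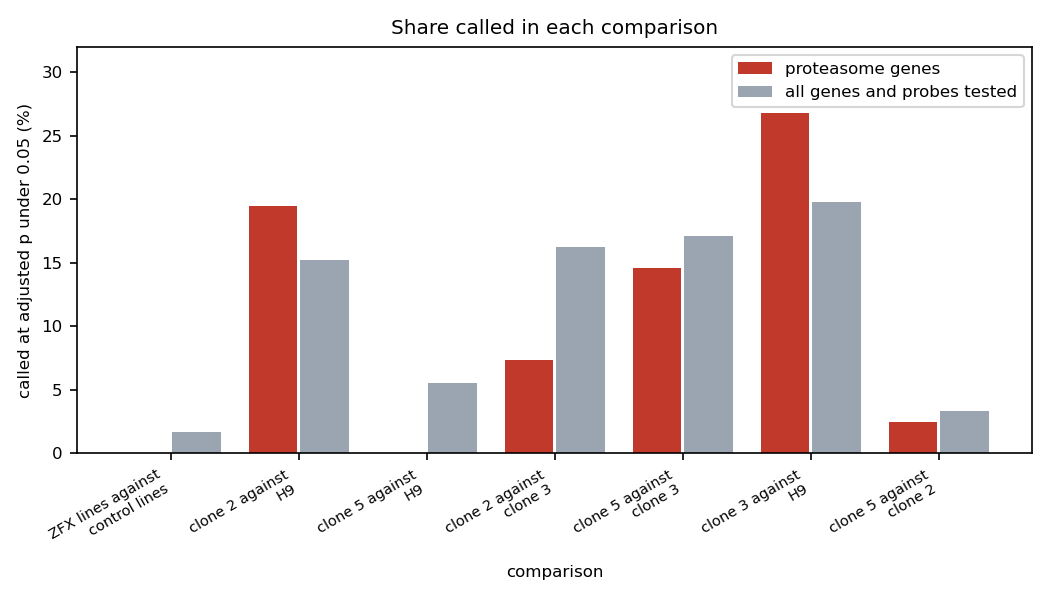
Percentage called at an adjusted p under 0.05 (y axis, from 0) in each of the 7 comparisons (x axis), in red for the 41 genes and in grey for all 19124 genes and probes tested. The share of proteasome genes was 26.8% against 19.8% for clone 3 over H9, 19.5% against 15.2% for clone 2 over H9, and below the share of all tested in the other 5 comparisons.

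Part of the grey bars in the plot of shares called comes from unnamed probes. Over named genes alone, 25.1% were called for clone 3 over H9 and 19.2% for clone 2 over H9. Among probes detected on all arrays, 12 of 40 proteasome genes were called for clone 3 over H9, where 30.3% of all such probes were, and 9 of 40 for clone 2 over H9, where 24.6% were. Called shares of proteasome genes in these comparisons are thus near the background.

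The lists of other genes of the pathway gave 0 called genes in ZFX against control lines. Of 14 tested subunits and partners outside the symbol rule, ECPAS, which tethers the core to the cap, was lower in clone 3 than in H9 by 0.29 (adjusted p = 0.0472) and higher in clones 2 and 5 than in clone 3 by 0.44 and 0.32. ZFAND5, an activator of the proteasome, was lower in clone 3 than in H9 by 0.24. ECPAS and ZFAND5 were the 2 of 14 called between clone 3 and H9, where 19.8% of all tested were. ADRM1, a ubiquitin receptor of the base, was lower in clone 2 than in H9 by 0.26. TXNL1, a thioredoxin-like protein bound to the cap, was lower in clones 2 and 5 than in clone 3 by 0.40 and 0.43 (all limma). POMP, the maturation factor of the core, was at 12.09 to 12.30 on all arrays and was called in no comparison.

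Of 10 tested regulators of proteasome gene transcription, 2 were called between clone 3 and H9, near the 19.8% called of all tested. NFE2L1, the factor that raises proteasome transcription when proteasome activity is short, was at 8.12 and 8.61 in H9, at a mean of 7.98 (SD 0.03, n = 2) in clone 3, 8.33 and 8.46 in clone 2 and 8.42 and 8.31 in clone 5. Both clone 3 arrays lay below all others, by a fold of -0.39 against H9 (SE 0.12, adjusted p = 0.0178, limma), and the H9 arrays were far apart. NFE2L1 was higher in clones 2 and 5 than in clone 3 by 0.42 and 0.39 (adjusted p = 0.012 and 0.0183, limma). These comparisons share the clone 3 arrays. KEAP1, which holds the related factor NFE2L2 for degradation, was lower than in H9 in clone 3 by 0.57 (adjusted p = 0.000101) and in clone 2 by 0.40 (adjusted p = 0.00538, both limma), and was higher in clone 5 than in clone 3 by 0.35. MAFF, a small MAF partner, was lower in clone 2 than in clone 3 by 0.44 (adjusted p = 0.018, limma).

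Upstream of the proteasome, VCP, the ATPase p97 that extracts ubiquitylated proteins, was at 9.62 and 9.62 in H9 and 10.05 and 9.91 in clone 5, with means of 10.04 in clone 3 (SD 0.07, n = 2) and 10.04 in clone 2 (SD 0.06, n = 2). All 3 clones lay above H9, by 0.43, 0.42 and 0.37 (adjusted p = 0.00035, 0.000633 and 0.00613, limma), comparisons that share the H9 arrays. Its cofactor FAF1 was lower in clone 2 than in H9 and in clone 3 by 0.32 each, and 5 further cofactors were not called. Of 4 tested genes of ubiquitin and its activation, UBA1, the main ubiquitin-activating enzyme, was lower in clone 3 than in H9 by 0.25 and higher in clone 5 than in clones 3 and 2 by 0.35 and 0.29. UBA6, a second activating enzyme, was higher in clone 3 than in H9 by 0.38, and the ubiquitin gene UBB was higher in clone 5 than in clone 3 by 0.25. Between clone 3 and H9, 2 of these 4 genes and 1 of 7 of p97 and its cofactors were called, where 19.8% of all tested were.

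The inducible core subunit PSMB8, left out by the symbol rule, was at 7.01 and 7.05 in H9, 6.53 and 6.45 in clone 3, 6.91 and 6.89 in clone 2 and 6.86 and 7.13 in clone 5. It was lower in clone 3 than in H9 by 0.54 (SE 0.13, adjusted p = 0.00242, limma). TAPBP and ERAP2, which load and trim peptides for antigen presentation, were lower too, by 0.51 and 0.27. These were 3 of 7 tested genes of inducible antigen processing, where 19.8% of all tested were called. TAP1, at -0.08, TAP2, at -0.20, ERAP1, at -0.13, and IRF1, at 0.10, were not called. Clones 2 and 5 had more PSMB8 than clone 3, by 0.41 and 0.50, and more TAPBP, by 0.53 and 0.74. IRF1, an interferon-response factor, was lower in clone 5 than in clone 3 by 0.38 (adjusted p = 0.0443, limma). Of the 7, 2 were called in clone 2 against clone 3 and 3 in clone 5, where 16.2% and 17.1% of all tested were.

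RefSeq windows of the 250 bases before a transcription start (build GRCh38.p14) were found for 36 of the 41 genes, in 44 windows. PSMB1, PSMB6, PSMB7, PSMD4 and PSMG3 were not matched. The 3 motifs sought on both strands were CCAAT, the core of the site of NF-Y, TGANNNNGC, and AGGCCT, the core of the ZFX site. TGANNNNGC is a loose form of the antioxidant response element core, bound by NFE2L1 and NFE2L2, that allows any base after TGA. CCAAT was in 19 of the 44 windows (43.2%) against 32% of 35116 windows of all genes. TGANNNNGC was in 26 (59.1%) against 35.2%, and AGGCCT in 7 (15.9%) against 9.2%. A gene can have more than 1 window, and windows of PSMC3IP, PSME3IP1 and PSMD6-AS2 are counted. Whether these shares differ was not tested. Matches to different motifs may overlap. A match is a description of these letters and not a bound site. The windows of 4 called genes that overlap no annotated gene are printed to show what such matches look like, 5′ to 3′ on the gene's strand with motif matches in capitals: PSMB4 (chr1:151399323-151399572, plus strand), PSMC3 (chr11:47426440-47426689, minus), PSMD8 (chr19:38374321-38374570, plus) and PSME3 (chr17:42833147-42833396, plus).
PSMB4: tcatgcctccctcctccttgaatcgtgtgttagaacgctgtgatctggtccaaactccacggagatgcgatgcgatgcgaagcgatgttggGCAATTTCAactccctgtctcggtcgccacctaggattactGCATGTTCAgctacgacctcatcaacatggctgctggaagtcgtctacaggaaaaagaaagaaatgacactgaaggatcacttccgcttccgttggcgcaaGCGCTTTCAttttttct
PSMC3: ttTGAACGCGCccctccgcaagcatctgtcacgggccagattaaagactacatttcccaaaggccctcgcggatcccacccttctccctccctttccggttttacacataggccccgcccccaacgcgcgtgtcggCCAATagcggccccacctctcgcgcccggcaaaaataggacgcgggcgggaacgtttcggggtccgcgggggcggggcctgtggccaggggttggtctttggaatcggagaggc
PSMD8: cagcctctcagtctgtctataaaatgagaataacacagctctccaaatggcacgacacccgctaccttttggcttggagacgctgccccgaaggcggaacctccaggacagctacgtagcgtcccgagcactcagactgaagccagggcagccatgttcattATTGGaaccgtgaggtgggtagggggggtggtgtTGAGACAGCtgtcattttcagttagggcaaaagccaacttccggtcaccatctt
PSME3: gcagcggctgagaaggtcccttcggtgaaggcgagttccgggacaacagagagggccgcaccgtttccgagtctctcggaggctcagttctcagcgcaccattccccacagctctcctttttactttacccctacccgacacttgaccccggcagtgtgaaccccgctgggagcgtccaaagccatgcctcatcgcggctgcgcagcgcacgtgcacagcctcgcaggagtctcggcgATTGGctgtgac
The PSMB4 window holds 3 matches to TGANNNNGC, PSMC3 and PSMD8 each hold 1 match to CCAAT and 1 to TGANNNNGC, and PSME3 holds 1 to CCAAT. PSMB4 was lower and PSMD8 higher in clone 3 than in H9. PSMC3 was lower in both ZFX clones than in clone 3, and PSME3 was lower in clone 2 than in H9. Whether these motifs go with the direction of a fold was not tested. AGGCCT was found in windows of PSMA6, PSMC3IP, PSMC6, PSMD2 and PSME4.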

How the data were processed

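RNA of 8 samples was hybridised to Illumina bead arrays. The authors deposited an intensity per probe on a linear scale and a detection p-value, with no normalization visible in the medians, and a separate table of processed values on the log2 scale, judged from the values. BeadStudio is named in the submitters' processing notes, and the remaining steps are not given in the sources used here. Intensities were corrected with normexp (offset 16, limma 3.58.1, R 4.3.3), quantile normalized and log2 transformed. Of 48802 probes, the 23280 that 2 or more arrays detected (p under 0.05) stayed, with the probe of highest mean per gene, and unnamed probes singly. limma was fitted to all 19124 rows with moderated variances that follow intensity, and adjusted by Benjamini-Hochberg with calls at 0.05. ZFX against control lines used the line as a random block (correlation 0.353), and line pairs used 4 line means. Second-probe p-values were adjusted over all kept probes. The fits were tested on simulated data. Members, gene lists, tests and named genes were chosen with earlier results of these data known: array values are given for the catalytic subunits and for up to 3 rises and 3 falls per line pair, others being named by role. Symbols came from the platform annotation. Alternatives varied background, scaling, filter, probe choice, variance model, lines used, treatment of the lines, arrays left out and the replicate block. The number of arrays limits the precision.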

Additional observations from a re-analysis of the deposited data

Results flagged for a closer look

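PSMB6, the caspase-like core subunit, was flagged because the test of clone 5 against clone 2 found a difference between the 2 ZFX lines, each of which carries the same kind of transgene, with a log2 fold of -0.31 (adjusted p = 0.0393, limma; both arrays of clone 5 below both of clone 2). Its difference from H9 was 0.35 in clone 2 and 0.04 in clone 5.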

How the results depend on the processing

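Calls in pairs of lines depended on scaling and on the variance model, and the cause was not tested. With median scaling the numbers called were 0 for clone 2 against H9, 1 for clone 3 against H9, 1 for clone 2 against clone 3, 1 for clone 5 against clone 3 and 0 for clone 5 against clone 2. The share of all genes and probes called fell too, from 15.2% to 2.92%, from 19.8% to 6.32%, from 16.2% to 6.89%, from 17.1% to 6.72% and from 3.27% to 0.251% in these comparisons. Without an intensity trend the numbers called were 1, 3, 1, 2 and 0, and the shares of all tested 7.5%, 12%, 10.6%, 10.9% and 0.251%. With no filter on dim probes, clone 2 against clone 3 gave 1, where 6.55% of all tested were called. Clone 5 against clone 2 then gave 0 (1.05%). With the mean of a gene's probes clone 2 against H9 gave 5 (13.7%) and clone 5 against clone 2 gave 0 (2.5%). With probes detected on all arrays clone 5 against H9 gave 1 (9.02%). ZFX against control lines gave 4 with the line fixed (15% of all tested) and 0 with any 1 array left out (0.95% to 2.38%). With H9 as the only control line it gave 2 (6.19%), and with clone 3 as the only one 4 (14.2%). With line means averaged first, so that lines are the units, it gave 0. Of all tested, 12 (0.0627%) were then called, against 321 (1.68%) in the main fit. When 1 array was left out, calls against H9 numbered between 3 and 10 in clone 2, where 8.95% to 16.1% of all tested were. They numbered 6 to 12 in clone 3 (12.8% to 20.7% of all tested) and 0 or 1 in clone 5 (3.22% to 5.36%). Which genes were called against clone 3, and between the ZFX clones, also changed with the array left out. The fold of PSMG3 over clone 3 ranged from 0.82 to 0.93 in clone 2 and from 0.75 to 0.90 in clone 5. That of PSMB6 in clone 5 over clone 2 ranged from -0.42 to -0.20. The fold of ZFX over control lines changed sign for PSMB5 with H9 as the only control line (-0.0776) and with median scaling (-0.0817), and ranged from -0.0326 to 0.0702 when 1 array was left out. That of PSMB6 changed sign with clone 3 as the only control line (-0.14), clone 5 as the only ZFX line (-0.12) and median scaling (-0.0619), and ranged from -0.0174 to 0.103 when 1 array was left out. PSMG3 was called in its 3 comparisons with clone 3 under each of the 16 alternatives, with folds of clone 3 over H9 from -0.87 to -0.45. With the authors' processed values, ZFX against control lines gave 0 called genes, and clones 2 and 5 against H9 gave 8 and 0. Clone 2 against clone 3 gave 4 and clone 3 against H9 gave 11. The shares of all tested were 1.54%, 15.3%, 5.44%, 16.4% and 19.6% in these comparisons. Same-numbered replicates did not deviate together over all genes and probes (correlations from -0.01 to 0.06 over 6 pairs of lines). Low correlations cannot exclude a pairing that acts on some genes or differs by line. With the replicate block the calls stayed at 0, 8, 0, 3, 6, 11 and 1 in the 7 comparisons. The shares of all tested were 1.14%, 15.4%, 5.6%, 16.5%, 17.2%, 20.1% and 3.29%. Over all genes and probes the block moved the calls of ZFX against control lines from 321 to 218. Leaving out PSMC3IP, PSME3IP1 and PSMD6-AS2, an alternative chosen after seeing the data, gave 7 for clone 2 against H9 and changed no other count.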
